A study of Mus musculus with 12 samples.

Results

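Cytochrome P450 genes were examined in the small intestine of mice with experimental graft-versus-host disease that had been given the bile acid TUDCA or vehicle. The members were the probe sets whose platform annotation named exactly 1 gene with a symbol of Cyp followed by a digit. Pseudogenes and Cyp51, an enzyme of cholesterol synthesis, were left out. This gave 92 genes with 1 probe set each, of 21408 genes named by a probe set of their own and of 23991 probe sets in all. A further 2 probe sets named a P450 gene together with another gene and were not used.

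The recipients of both groups were wild type BALB/c mice that had been irradiated over the whole body and transplanted with bone marrow cells and T cells of C57BL/6N donors. The TUDCA group, 6 arrays, received 200 mg/kg tauroursodeoxycholic acid, a taurine-conjugated bile acid, by intraperitoneal injection every day, and the vehicle group, 6 arrays, received an equal volume of 200 µl vehicle. Tissue was taken on day 14 after transplantation, and no group without transplantation is part of the comparison. Total RNA was labelled with biotin and hybridised to Affymetrix arrays, giving 1 log2 expression value per probe set and array. Ages and sexes are not given in the labels.

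The arrays were alike in scale, with medians of 5.90 to 5.95 log2 units and pairwise correlations of 0.984 to 0.993 over probe sets. Precision is limited by having 6 arrays a group. The samples carry either low numbers (2 TUDCA and 4 vehicle arrays) or high numbers (4 TUDCA and 2 vehicle arrays) in their labels, called the low and high number range here. Their meaning is not stated, and the range entered the fit as a term. One label field names CXCL12-abundant reticular cells as the source, while the tissue, source and design text name small intestine. Fabp6, the ileal bile acid binding protein, had log2 values of 12.43 to 13.13 on the TUDCA arrays and 12.68 to 13.25 on the vehicle arrays. Slc10a2, the ileal bile acid transporter, had 10.93 to 11.32 with TUDCA and 10.86 to 11.24 with vehicle. Both are markers of the ileum and lie in the top 1 percent of probe sets. The mean level of 13 measured fibroblast and reticular markers was 7.72 to 8.25 with TUDCA and 7.83 to 8.11 with vehicle. The median of all probe set means was 5.93. This list does not single out CXCL12-abundant reticular cells, and their presence in the tissue was not tested.

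Cytochrome P450s are haem-containing monooxygenases that insert an oxygen atom into fatty acids, sterols, vitamins, drugs and plant compounds. They draw electrons from P450 oxidoreductase in the endoplasmic reticulum or from ferredoxin in mitochondria. In the small intestine, enterocytes use them to oxidise xenobiotics before these reach the liver, with the CYP3A subfamily best known for this. Other P450s there act on fatty acids, eicosanoids, retinoic acid and vitamin D, and the classical and alternative routes of bile acid synthesis in liver begin with P450s. The expression of many members is set by nuclear receptors for bile acids, xenobiotics, vitamin D and fatty acids.

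The promoters of the genes that passed the test are shown first, together with those of Cyp3a59 and Cyp3a11, the neighbours of Cyp3a25 with the next largest differences in their subfamily. Each is the 250 bases before the RefSeq start on build GRCm38.p6, written 5′ to 3′ on the strand of the gene, and 70 of the 92 members have a promoter in the table used. Capitals mark the nuclear receptor core hexamers AGGTCA and AGTTCA on either strand, where TGACCT and TGAACT are their reverse complements. Cyp3a25 lies at chr5:146009619-146009868 on the minus strand, Cyp3a59 at chr5:146079008-146079257 on the plus strand and Cyp3a11 at chr5:145879855-145880104 on the minus strand. Cyp27a1 lies at chr1:74713285-74713534 on the plus strand, Cyp4v3 at chr8:45333164-45333413 on the minus strand and Cyp4f13 at chr17:32947362-32947611 on the minus strand.
Cyp3a25: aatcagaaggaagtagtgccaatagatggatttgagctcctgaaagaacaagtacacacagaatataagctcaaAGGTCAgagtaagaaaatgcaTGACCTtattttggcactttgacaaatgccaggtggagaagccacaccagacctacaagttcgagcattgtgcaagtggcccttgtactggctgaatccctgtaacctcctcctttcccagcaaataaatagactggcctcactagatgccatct
Cyp3a59: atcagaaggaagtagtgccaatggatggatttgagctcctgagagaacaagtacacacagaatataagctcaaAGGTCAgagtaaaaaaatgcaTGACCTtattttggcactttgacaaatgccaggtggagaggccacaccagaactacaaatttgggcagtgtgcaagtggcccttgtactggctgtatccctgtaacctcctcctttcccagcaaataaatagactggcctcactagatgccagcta
Cyp3a11: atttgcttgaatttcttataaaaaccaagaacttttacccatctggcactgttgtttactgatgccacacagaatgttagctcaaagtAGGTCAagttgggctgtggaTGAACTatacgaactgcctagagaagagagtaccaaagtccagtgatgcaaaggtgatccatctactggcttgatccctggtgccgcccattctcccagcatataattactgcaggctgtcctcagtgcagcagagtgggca
Cyp27a1: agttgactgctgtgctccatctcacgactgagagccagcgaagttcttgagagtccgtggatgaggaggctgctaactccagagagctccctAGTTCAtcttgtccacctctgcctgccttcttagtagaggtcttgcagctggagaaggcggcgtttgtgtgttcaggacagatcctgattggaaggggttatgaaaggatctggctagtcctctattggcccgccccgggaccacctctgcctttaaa
Cyp4v3: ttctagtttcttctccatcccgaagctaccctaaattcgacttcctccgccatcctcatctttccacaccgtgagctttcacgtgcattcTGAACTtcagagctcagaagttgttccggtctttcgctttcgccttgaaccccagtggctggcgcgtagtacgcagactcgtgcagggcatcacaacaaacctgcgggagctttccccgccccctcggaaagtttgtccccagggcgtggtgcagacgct
Cyp4f13: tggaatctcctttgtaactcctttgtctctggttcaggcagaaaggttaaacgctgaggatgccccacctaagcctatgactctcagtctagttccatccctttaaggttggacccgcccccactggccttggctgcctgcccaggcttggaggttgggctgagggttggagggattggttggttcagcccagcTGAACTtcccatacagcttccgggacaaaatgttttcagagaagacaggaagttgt

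The Cyp3a25 and Cyp3a59 promoters were 94.8% identical over their alignment, and both hold AGGTCA on the gene's strand followed by TGACCT. In Cyp3a25 these hexamers lie at −176 to −171 and −155 to −150 relative to the start. The Cyp3a11 promoter was 55.6% identical to that of Cyp3a25 and holds AGGTCA at −162 to −157 followed by TGAACT at −142 to −137. The promoters of Cyp27a1, Cyp4v3 and Cyp4f13 hold 1 AGTTCA hexamer each on one of the strands. AGGTCA was present on either strand for 24.3% of the 70 member genes (17) and in 14.0% of all 32851 promoters of the same length. AGTTCA was present for 15.7% of member genes and in 11.8% of all promoters. TATAAA, the TATA box, was present for 32.9% of member genes and in 12.4% of all promoters. A member gene counted once if any of its promoters held the letters, while all promoters counted singly. Genes with several starts, such as Cyp3a25 with 2, had more chances, so the member shares may be overstated. These matches describe the letters in the windows and were not tested as sites.

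Of the 92 P450 genes, 4 were lower in TUDCA-treated intestine and 0 were higher at an adjusted p of 0.05 (limma, two-sided, Benjamini-Hochberg over all probe sets). They were Cyp3a25, a drug-oxidising P450 of the CYP3A subfamily, Cyp27a1, the mitochondrial sterol 27-hydroxylase, and the fatty acid hydroxylases Cyp4v3 and Cyp4f13. The share of lower members was 4.35%, against 1.52% of all probe sets called lower, 1.00% called higher and 2.52% called in either direction. The count of lower members was 2 without TUDCA replicate 1 or without vehicle replicate 6, and that of higher members was 2 without TUDCA replicate 2 and 1 without TUDCA replicate 6 or vehicle replicate 4. At an unadjusted p under 0.05, 10 members were lower and 5 higher, where 6.84% of all probe sets were lower and 7.24% higher. At an adjusted p under 0.1, 8 members passed, of which 2 were higher, Cyp2c37 and Cyp2j6. The others were lower, namely the 4 called genes with Cyp4f39 and Cyp3a59. Of all probe sets 2.26% were lower and 1.79% higher at that threshold. All 6 TUDCA arrays lay below the vehicle mean of their number range for 11 members, against 7.30% of all probe sets, and above it for 10 members, against 8.79% of all probe sets.

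Most P450 genes had small fitted differences between the groups. The log2 differences, TUDCA minus vehicle, were below 0 for 45 members and above 0 for 47, with a median of 0.01 for the members and 0.01 for all probe sets. The quartiles of the differences were −0.12 and 0.12 for the members and −0.08 and 0.09 for all probe sets, so the members spread somewhat wider. For 68 of 92 members the 95% interval of the difference lay within 0.5 log2 units of 0. This count was not split by level and not made for all probe sets. The table has no detection calls, and 47 members had a mean below 4.59 log2 units, the 25th percentile of all probe set means, where differences on arrays are compressed. Such dim members are part of the 68 with narrow intervals, so that count does not bound the brighter members as a set. The quartiles of the differences were −0.06 and 0.11 for the 47 members and −0.17 and 0.12 for the 45 members above that level. All 4 called genes were among these 45 members, a share of 8.89%, against 2.00% of all probe sets above that level called lower. Cyp3a25 passed that level only through the vehicle arrays, with means of 3.54 with TUDCA and 6.01 with vehicle. The share therefore depends in part on the group where this gene was high and is no separate test. The plot of differences for all 92 genes shows Cyp3a25, Cyp4f13 and Cyp27a1 as the lowest of their family or role, while Cyp4v3 is the one member of its subfamily.

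**Figure D1:**
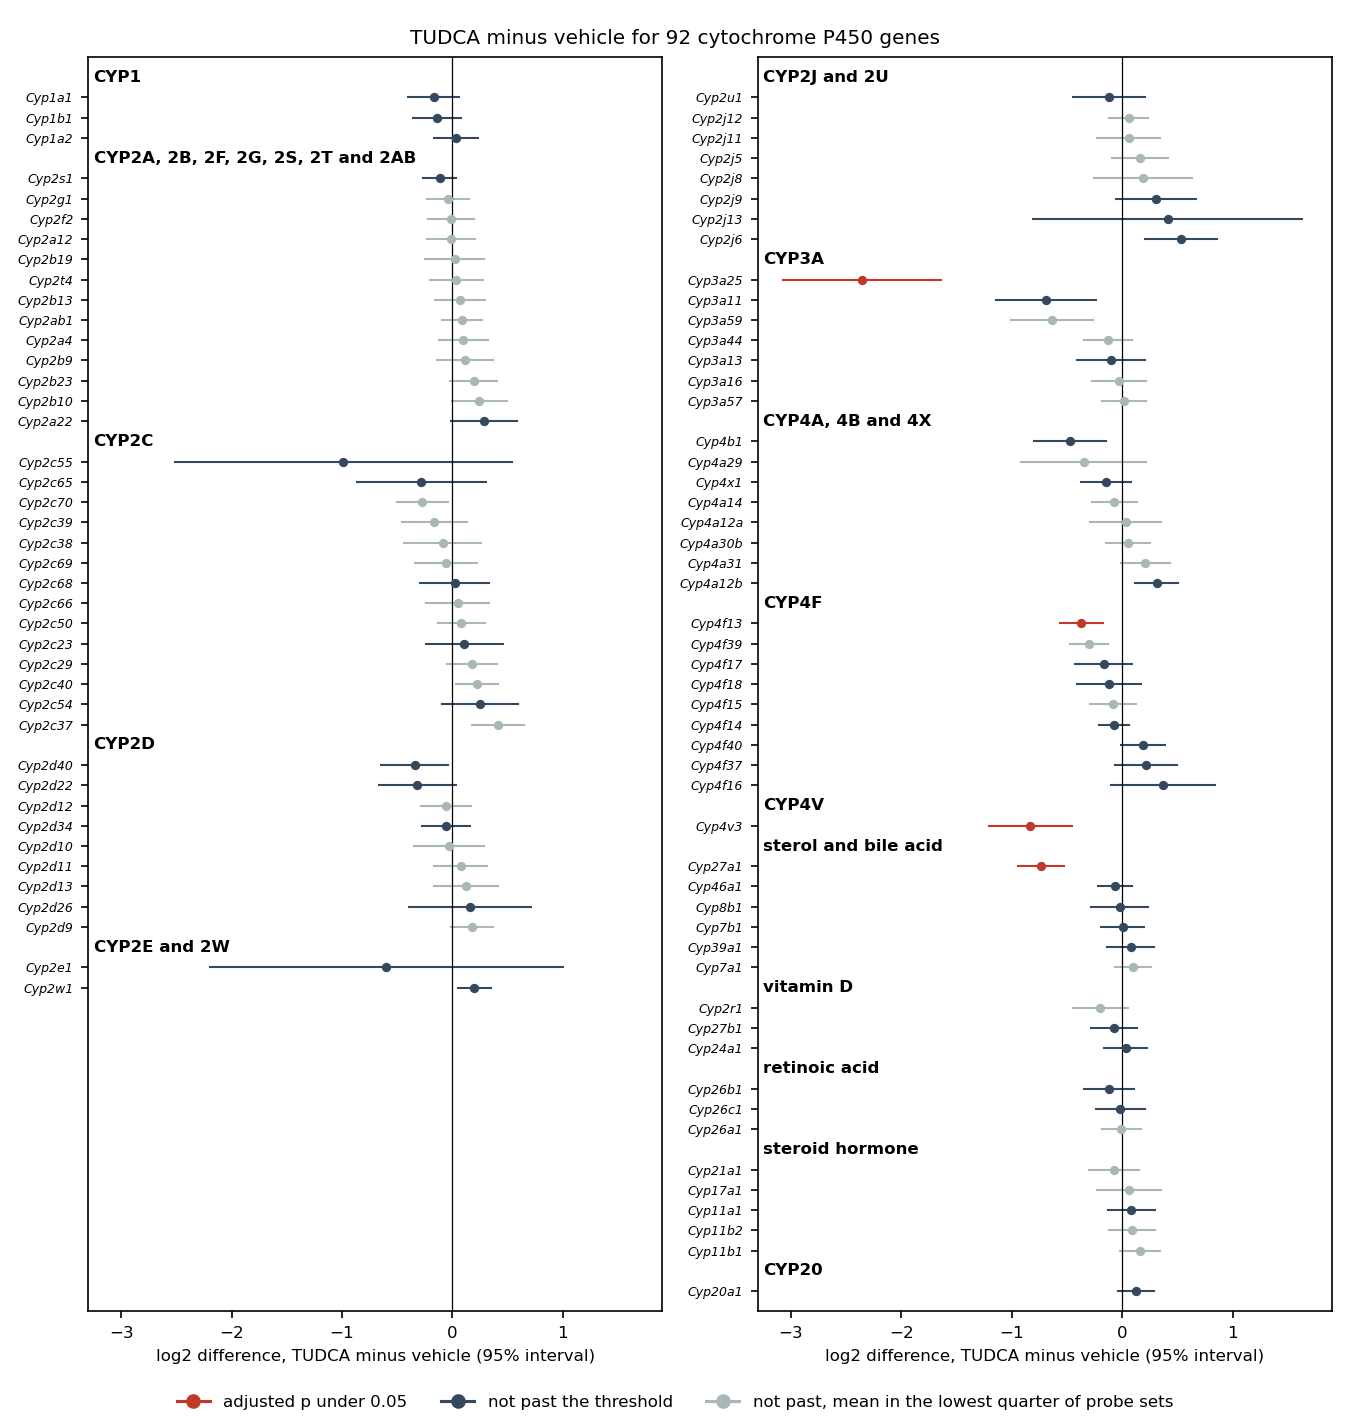
Log2 differences, TUDCA minus vehicle, of the 92 P450 genes with 95% intervals from limma, grouped by family or known role. Red points passed an adjusted p of 0.05, dark points did not, and pale points did not and had means below the 25th percentile of all probe sets. Cyp3a25 stands lowest at −2.36, and most others lie close to 0.

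Cyp3a25 had log2 values of 2.96, 3.63 and 4.09 (lowest, median and highest) on the 6 TUDCA arrays, against 4.92, 6.05 and 6.91 on the 6 vehicle arrays. Every TUDCA array lay below every vehicle array. The means were 3.54 ± 0.43 with TUDCA and 6.01 ± 0.85 with vehicle (SD, n = 6 each), and the fitted difference was −2.36 ± 0.34 (SE), which is 0.195 times the vehicle level (limma adjusted p = 0.00222). The TUDCA values lie in the lowest part of the array's scale, where the difference may be understated. Within the number ranges the difference was −3.43 in the low range and −1.28 in the high range. In the high range alone the adjusted p was 0.0595, and whether the ranges differ was not tested. With any 1 array left out the difference stayed between −2.68 and −2.06 with an adjusted p of at most 0.0139.

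Cyp27a1, which starts the alternative pathway of bile acid synthesis by hydroxylating the cholesterol side chain, had 6.70, 7.03 and 7.25 on the TUDCA arrays, against 7.53, 7.87 and 8.17 on the vehicle arrays. The groups did not overlap here either. The means were 7.03 ± 0.20 with TUDCA and 7.85 ± 0.23 with vehicle (SD, n = 6 each), a fitted difference of −0.74 ± 0.10 (SE) or 0.601 times the vehicle level (limma adjusted p = 0.00171). The difference was −0.84 in the low range and −0.63 in the high range, and leaving out any 1 array gave −0.79 to −0.68 with an adjusted p of at most 0.0104. In the high range alone the adjusted p was 0.237. Cyp27a1 and Cyp3a25 were the 2 members whose groups did not overlap, where 1.98% of all probe sets had groups that did not overlap, 1.18% with TUDCA lower.

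Cyp4v3, the mouse counterpart of the human fatty acid omega-hydroxylase CYP4V2, had 8.36, 8.68 and 9.10 with TUDCA, against 8.94, 9.78 and 9.92 with vehicle. The groups overlapped, since 1 vehicle array of the high range lay among the TUDCA arrays. The means were 8.71 ± 0.32 with TUDCA and 9.61 ± 0.38 with vehicle (SD, n = 6 each), and the fitted difference was −0.83 ± 0.18 (SE), 0.561 times the vehicle level (limma adjusted p = 0.0215). It was −1.30 in the low range and −0.37 in the high range, where the adjusted p alone was 0.613. The call ended without TUDCA replicate 1 (adjusted p = 0.104), TUDCA replicate 2 (adjusted p = 0.0890) or vehicle replicate 6 (adjusted p = 0.0518).

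Cyp4f13, of the subfamily that hydroxylates leukotriene B4 and other fatty acids at the omega end, had 7.95, 8.22 and 8.41 with TUDCA, against 8.35, 8.64 and 8.85 with vehicle. The ranges overlapped slightly, although all 6 TUDCA arrays lay below the vehicle mean of their number range. The means were 8.20 ± 0.17 with TUDCA and 8.63 ± 0.19 with vehicle (SD, n = 6 each), a fitted difference of −0.37 ± 0.09 (SE) or 0.774 times the vehicle level (limma adjusted p = 0.0451). This call is the least certain: it ended without any 1 of 8 arrays, TUDCA replicates 1, 2, 5 and 6 and vehicle replicates 1, 2, 4 and 6, with adjusted p up to 0.197. It also ended with variances fitted without a trend (adjusted p = 0.0672).

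**Figure D2:**
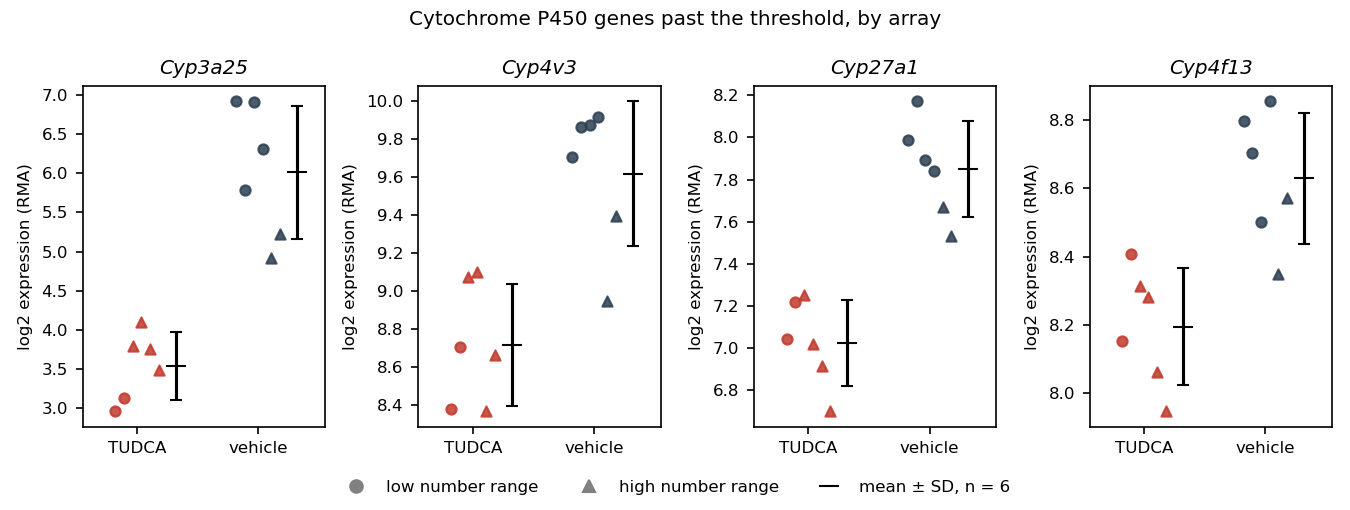
Log2 expression on each array for the 4 P450 genes lower with TUDCA, with the mean ± SD of 6 arrays beside each group. Circles are arrays of the low and triangles of the high number range, and the axes do not start at 0. For Cyp3a25 and Cyp27a1 no TUDCA array reaches the lowest vehicle array, while for Cyp4v3 and Cyp4f13 the groups overlap.

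The 4 calls rested on the low-range arrays together with the others. Without both low-range TUDCA arrays, TUDCA replicates 1 and 2, an alternative added after the data were seen, 0 members were called. The differences were then those of the high range, with adjusted p of 0.123 for Cyp3a25, 0.134 for Cyp27a1, 0.502 for Cyp4v3 and 0.408 for Cyp4f13. Of all probe sets, 7 were then called higher and 13 lower. All differences of the 4 genes stayed below 0 in each number range.

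Cell type markers moved with the same contrast. Of 22 measured enterocyte markers 8 were lower and 0 higher, with a median difference of −0.22, and their mean level was 10.62 to 10.85 on the TUDCA arrays and 10.88 to 11.09 on the vehicle arrays. Ace, a brush border peptidase, averaged 9.59 ± 0.33 with TUDCA and 10.65 ± 0.16 with vehicle (SD, n = 6 each; limma adjusted p = 1.29e-05). Of 10 goblet cell markers 5 were higher and 0 lower, with mean levels of 10.47 to 10.87 with TUDCA and 9.96 to 10.51 with vehicle. Without TUDCA replicate 2, 4 of these 5 calls ended, those of Spink4 (adjusted p = 0.0517), Spdef (0.068), Bcas1 (0.0948) and Agr2 (0.146), while that of Capn9 did not. Those of Spdef and Bcas1 also ended without TUDCA replicate 1 and that of Bcas1 without vehicle replicate 6. The Agr2 call ended without any 1 of 9 arrays, TUDCA replicates 1, 2, 4, 5 and 6 and vehicle replicates 1, 2, 3 and 6. Its limma adjusted p was then up to 0.148, and the call also ended with variances fitted without a trend (adjusted p = 0.0534). Without the number range in the fit the calls of Capn9 (adjusted p = 0.0781) and Agr2 (adjusted p = 0.112) ended. Of 15 T and NK cell markers 6 were lower and 0 higher, with mean levels of 5.58 to 6.79 with TUDCA and 6.58 to 7.23 with vehicle. The Cd3g call ended without any 1 of the 12 arrays, and the Gzmb call without TUDCA replicate 1 or 2 or vehicle replicate 1, 3 or 5. Without the number range in the fit, the calls of Gzma (adjusted p = 0.0869), Gzmb (adjusted p = 0.200) and Cd3g (adjusted p = 0.0913) ended, which leaves 3 of the 6. None of 15 macrophage and dendritic, 9 smooth muscle, 9 endothelial, 7 Paneth or 12 crypt markers passed. In whole tissue, fewer cells of a type and less RNA per cell cannot be told apart. The part of these markers in the P450 differences between the groups was not tested.

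The CYP3A subfamily, the main drug-oxidising P450s of gut and liver, had 7 members, of which 1 was lower and 6 had differences below 0, though for 3 of the 7 the sign differed between the number ranges. Cyp3a11, the mouse CYP3A best known for induction by the pregnane X receptor, had 4.60, 4.91 and 5.21 with TUDCA, against 5.21, 5.45 and 6.44 with vehicle. TUDCA replicates 4 and 5, the highest with TUDCA, and vehicle replicate 5, the lowest with vehicle, had the same value of 5.2064. The groups met only there, and why these values were equal was not tested. The Cyp3a11 difference of −0.69 ± 0.21 (SE) did not pass (limma adjusted p = 0.121), with −1.13 in the low and −0.25 in the high range. Cyp3a59 had 2.71, 3.30 and 3.67 with TUDCA, against 3.52, 3.87 and 4.32 with vehicle, a difference of −0.63 ± 0.17 (SE) that did not pass (limma adjusted p = 0.0767). Its values lie near the floor of the arrays. Cyp3a13, a CYP3A of the intestine, had 8.85, 9.49 and 9.68 with TUDCA, against 9.20, 9.45 and 9.66 with vehicle. Its groups overlapped throughout, and the 95% interval of its difference of −0.10 ran from −0.41 to 0.21. Cyp3a44 had a difference of −0.13 ± 0.10 (SE).

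By the RefSeq order of genes on GRCm38.p6, 70 of the 92 members lie in 10 tandem groups of P450 genes and 22 lie alone. The Cyp3a group on chromosome 5 holds, in order, Cyp3a57, Cyp3a16, Cyp3a44, Cyp3a11, Cyp3a25 and Cyp3a59, while Cyp3a13 lies apart. The lowest differences of the group were those of Cyp3a25 and its immediate neighbours Cyp3a11 and Cyp3a59, and the other 3 genes lay between −0.13 and 0.01. Cyp3a57, named after its values were seen, had a promoter 88.9% identical to that of Cyp3a25 but a difference of 0.01 ± 0.09 (SE) at a mean in the lowest 2.13 percent of probe sets. Genes of this group are close copies, the probe sequences were not used here, and signal shared between Cyp3a25 and Cyp3a59 probe sets was not tested.

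The Cyp4f group on chromosome 17 runs from Cyp4f39 to Cyp4f13 and holds 8 genes, of which 5 had differences below 0 and 1 was called. Cyp4f39, named after its values were seen, had 4.07, 4.44 and 4.66 with TUDCA, against 4.43, 4.59 and 4.85 with vehicle. Its difference of −0.30 ± 0.08 (SE) did not pass (limma adjusted p = 0.0704), with −0.31 in the low and −0.29 in the high range. All 6 TUDCA arrays lay below the vehicle mean of their number range, at a mean level of 4.52, where differences on arrays are compressed. Cyp4f14, next to Cyp4f13 and also a leukotriene B4 hydroxylase, had 11.02, 11.22 and 11.35 with TUDCA, against 11.22, 11.30 and 11.42 with vehicle, a difference of −0.07 ± 0.06 (SE). Its groups overlapped, and the 95% interval ran from −0.21 to 0.06. Cyp4f40 had a difference of 0.19 ± 0.09 (SE) and Cyp4f16 one of 0.37 ± 0.22 (SE), so members of the group differed in sign. Of the measured non-P450 genes flanking the 4 called members, Tlr3, a receptor for double-stranded RNA that lies close to Cyp4v3, was lower (difference −0.34 ± 0.08 SE, limma adjusted p = 0.0498). It was chosen after its values were seen, and the flanking genes of Cyp27a1 and Cyp4f13 did not pass.

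**Figure D3:**
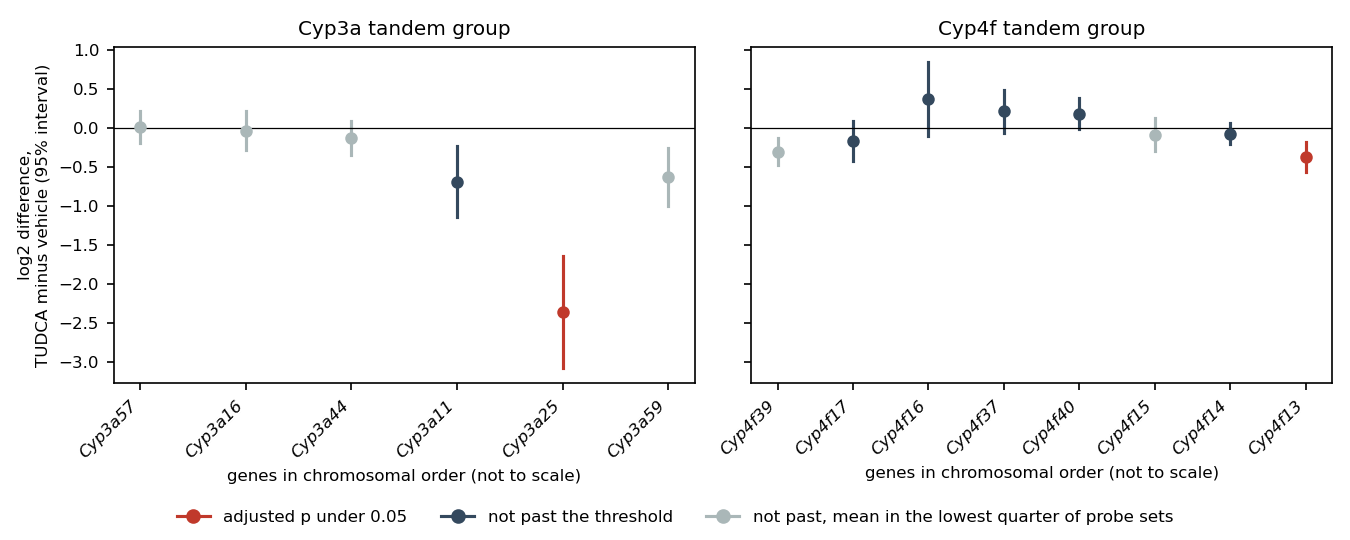
Log2 differences, TUDCA minus vehicle, with 95% intervals for the genes of the Cyp3a and Cyp4f tandem groups in chromosomal order, not to scale. Cyp3a25 (−2.36) lies between Cyp3a11 (−0.69) and Cyp3a59 (−0.63), and Cyp4f13 (−0.37) is the last gene of its group, beside Cyp4f14 (−0.07).

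Among the other enzymes of sterol and bile acid hydroxylation, none of 5 passed. Cyp7a1, the rate-limiting enzyme of the classical pathway in liver, had 3.39, 3.46 and 3.62 with TUDCA, against 3.27, 3.39 and 3.55 with vehicle, near the floor of the arrays in both groups. Cyp8b1, the 12-alpha-hydroxylase that sets the share of cholic acid, had 5.50, 5.74 and 6.00 with TUDCA, against 5.46, 5.86 and 6.03 with vehicle, and its difference was −0.02 ± 0.12 (SE). Cyp7b1, the oxysterol 7-alpha-hydroxylase that follows Cyp27a1 in the alternative pathway, had a difference of 0.00 with a 95% interval from −0.19 to 0.20. Cyp39a1, which hydroxylates 24-hydroxycholesterol, had a difference of 0.08 ± 0.10 (SE). Of 19 measured genes of bile acid synthesis and transport other than P450s, 1 was higher and 0 lower, with a median of −0.04. It was Acox2, which shortens the bile acid side chain in peroxisomes, with means of 6.80 ± 0.18 with TUDCA and 6.31 ± 0.13 with vehicle (SD, n = 6 each; limma adjusted p = 0.00452).

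The CYP4A, 4B and 4X members, which hydroxylate fatty acids at or near the omega end, numbered 8, and none passed. Cyp4b1 had 6.36, 6.50 and 7.16 with TUDCA, against 6.77, 7.06 and 7.42 with vehicle, a difference of −0.47 ± 0.15 (SE; limma adjusted p = 0.145). Cyp4a12b had 6.12, 6.46 and 6.64 with TUDCA, against 5.93, 6.12 and 6.24 with vehicle, a difference of 0.31 ± 0.09 (SE; limma adjusted p = 0.104). The groups overlapped for both genes, with all TUDCA arrays above the vehicle mean of their range for Cyp4a12b. Cyp4a29 was at 3.51 to 4.06 on all arrays except vehicle replicate 5, which stood at 5.45. Of 25 measured genes of omega oxidation and PPAR alpha targets, 1 was higher and 1 lower, with a median of −0.04. Vnn1, a pantetheinase induced by PPAR alpha, averaged 8.30 ± 0.78 with TUDCA and 9.75 ± 0.27 with vehicle (SD, n = 6 each, limma adjusted p = 0.0119). This call ended without TUDCA replicate 1 and with robust eBayes (limma adjusted p = 0.0577). The thioesterase Acot1 averaged 6.11 ± 0.14 with TUDCA and 5.68 ± 0.24 with vehicle (SD, n = 6 each; limma adjusted p = 0.0189), a call that ended without TUDCA replicate 1 or 2, without vehicle replicate 5 and without the number range (adjusted p = 0.0545).

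The CYP2J and CYP2U members, epoxygenases and hydroxylases of arachidonic acid, numbered 8, and none passed. All 7 Cyp2j genes, neighbours on chromosome 4, had differences above 0, of 0.06 to 0.53, and the median with Cyp2u1 was 0.17, against 0.01 for all probe sets. Within the low number range 4 of the 7 differences were above 0 and within the high range 5, and for 5 genes the sign differed between the ranges. Cyp2j13 was at −0.49 in the low and 1.31 in the high range, and Cyp2j6 at 0.34 and 0.72. As close copies they may share signal, which was not tested. Cyp2j6 had 9.18, 9.26 and 9.77 with TUDCA, against 8.48, 8.72 and 9.43 with vehicle, a difference of 0.53 ± 0.15 (SE) that did not pass (limma adjusted p = 0.0871). Of the vehicle arrays, replicate 4 alone reached the TUDCA values, and without it the difference was 0.63 and passed (adjusted p = 0.00796). Cyp2j9 had a difference of 0.31 ± 0.17 (SE) and Cyp2j13 one of 0.41 ± 0.57 (SE). TUDCA replicate 3 was the highest TUDCA array for all 3 genes, and without it Cyp2j13 had a difference of 0.02 and Cyp2j9 one of 0.19. Cyp2u1 had a difference of −0.12 ± 0.15 (SE).

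Among 22 measured eicosanoid and epoxide enzymes other than P450s, 1 was higher and 1 lower, with a median of −0.03. Ephx2, the soluble epoxide hydrolase that breaks down the epoxides made by CYP2C and CYP2J enzymes, had 6.62, 7.31 and 8.24 with TUDCA, against 7.99, 8.67 and 8.89 with vehicle. The means were 7.32 ± 0.59 with TUDCA and 8.59 ± 0.33 with vehicle (SD, n = 6 each), and the difference of −1.37 ± 0.23 (SE) passed (limma adjusted p = 0.00615), also with any 1 array left out. Pla2g10, a secreted phospholipase that releases fatty acids from membranes, averaged 6.56 ± 0.27 with TUDCA and 6.09 ± 0.15 with vehicle (SD, n = 6 each; limma adjusted p = 0.0268), a call that ended without TUDCA replicate 2 or 5 or vehicle replicate 1, 5 or 6.

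The 14 CYP2C genes, which oxidise drugs and arachidonic acid, had 9 members below the 25th percentile, and none passed. Cyp2c37 had 3.51, 3.81 and 4.28 with TUDCA, against 3.29, 3.54 and 3.78 with vehicle, a difference of 0.41 ± 0.11 (SE; limma adjusted p = 0.0669) near the floor of the arrays. Cyp2c65, a P450 of the intestine, had 5.70, 6.40 and 6.83 with TUDCA, against 5.55, 6.84 and 7.30 with vehicle, and its difference of −0.28 had a 95% interval from −0.87 to 0.30. Cyp2c54 had a difference of 0.25 ± 0.16 (SE), Cyp2c29 one of 0.18 ± 0.11 (SE) and Cyp2c66 one of 0.05 ± 0.13 (SE). Except for the wide spread of Cyp2c55, described further on, the subfamily held differences from −0.28 to 0.41.

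The remaining xenobiotic P450s held no called member. The 3 CYP1 genes, targets of the aryl hydrocarbon receptor, had differences of −0.17 to 0.03, with Cyp1a1 at 4.61, 4.72 and 4.84 with TUDCA, against 4.56, 4.89 and 5.21 with vehicle. Cyp1b1 had a difference of −0.14 ± 0.10 (SE). Of 13 genes of the CYP2A, 2B, 2F, 2G, 2S, 2T and 2AB subfamilies, 11 lay below the 25th percentile. Cyp2b10, the classical target of the constitutive androstane receptor, had 4.19, 4.38 and 4.76 with TUDCA, against 3.92, 4.06 and 4.39 with vehicle, and its difference of 0.24 had a 95% interval touching 0 (limma adjusted p = 0.365). Cyp2a22 had a difference of 0.29 ± 0.14 (SE), and Cyp2s1, an extrahepatic P450 of epithelia, one of −0.11 ± 0.07 (SE). The 9 CYP2D genes had differences of −0.34 to 0.18, with Cyp2d40 at −0.34 ± 0.14 (SE), Cyp2d22 at −0.32 ± 0.16 (SE) and Cyp2d26 at 0.16 ± 0.26 (SE).

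Enzymes of vitamins and hormones also held no called member. Among the 3 vitamin D P450s, Cyp27b1, which makes the active hormone, had a difference of −0.07 ± 0.10 (SE), and Cyp24a1, which degrades it, had 4.85, 4.97 and 5.23 with TUDCA, against 4.85, 4.92 and 5.19 with vehicle. The 95% interval of Cyp24a1 ran from −0.17 to 0.23. The 3 CYP26 genes, which degrade retinoic acid, had differences of −0.12 to −0.01, with Cyp26b1 at −0.12 ± 0.11 (SE) and Cyp26a1 at −0.01 ± 0.08 (SE). The 5 steroid hormone P450s had differences of −0.07 to 0.16, with Cyp11a1, the cholesterol side-chain cleavage enzyme, at 0.08 ± 0.10 (SE) and Cyp11b1, which completes glucocorticoid synthesis, at 0.16 ± 0.08 (SE). Of these 5, 4 lay below the 25th percentile. Cyp20a1, an orphan P450, had a difference of 0.12 ± 0.08 (SE).

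In the vitamin D pathway outside the P450s, 4 of 12 measured genes were lower and 0 higher, with a median of −0.19. S100g, which encodes calbindin-D9k and carries calcium across the enterocyte, had 7.34, 9.35 and 10.31 with TUDCA, against 11.18, 11.88 and 12.09 with vehicle, with no overlap between the groups (limma adjusted p = 0.0015). Slc34a2, a phosphate transporter, averaged 11.31 ± 0.18 with TUDCA and 11.93 ± 0.18 with vehicle (SD, n = 6 each; limma adjusted p = 0.00531). Cdhr5, a microvillus cadherin, differed by −0.39 ± 0.06 (SE; limma adjusted p = 0.00327). Cubn, an endocytic receptor for vitamin-binding proteins, differed by −0.47 ± 0.10 (SE; limma adjusted p = 0.0254), a call that ended without TUDCA replicate 1 or 2 or vehicle replicate 1, 2, 3 or 6. These genes are also expressed by enterocytes, whose markers are given above. Of 21 measured retinoid genes other than P450s, 2 were lower and 0 higher. They were Rdh16, a retinol dehydrogenase, at −0.60 ± 0.13 (SE; limma adjusted p = 0.0236), and Isx, an intestinal homeobox factor that represses carotenoid uptake, at −0.43 ± 0.10 (SE; limma adjusted p = 0.0437). The Rdh16 call ended without TUDCA replicate 1 or 2, and the Isx call without TUDCA replicate 1, 2 or 5 or vehicle replicate 1, 2, 3, 4 or 5.

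The partners that supply P450s with electrons and haem did not pass, with 0 of 11 measured genes called in either direction and a median of 0.02. Of 29 measured regulators of P450 genes, 1 was higher and 3 lower, with a median of −0.06. Nr1i2, the pregnane X receptor that induces CYP3A genes, had 8.91, 9.04 and 9.23 with TUDCA, against 9.15, 9.31 and 9.45 with vehicle, a difference of −0.20 ± 0.07 (SE) that did not pass (limma adjusted p = 0.166). Vdr, the vitamin D receptor, differed by −0.23 ± 0.10 (SE; limma adjusted p = 0.329) and Nr1h4, the bile acid receptor FXR, by −0.14 ± 0.09 (SE; limma adjusted p = 0.549). These receptors were named after their values were seen. Pparg, a fatty acid receptor, averaged 7.56 ± 0.19 with TUDCA and 6.72 ± 0.44 with vehicle (SD, n = 6 each; limma adjusted p = 0.0248), and its call ended without TUDCA replicate 1 or vehicle replicate 5. The coactivator Ppargc1a differed by −0.39 ± 0.08 (SE; limma adjusted p = 0.0133), the retinoid X receptor Rxrg by −0.43 ± 0.09 (SE; limma adjusted p = 0.0243) and the glucocorticoid receptor Nr3c1 by −0.29 ± 0.06 (SE; limma adjusted p = 0.0244). Each of these 3 calls ended without TUDCA replicate 1. Those of Rxrg and Nr3c1 also ended without TUDCA replicate 2, that of Rxrg without vehicle replicate 6 and that of Nr3c1 without vehicle replicate 2. Without the number range in the fit the calls of Ppargc1a (adjusted p = 0.172) and Nr3c1 (adjusted p = 0.0526) ended.

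Targets that xenobiotic receptors share with P450 genes differed in sign. Of 11 measured targets of the pregnane X and constitutive androstane receptors, 1 was higher and 1 lower. Ces2a, an intestinal carboxylesterase, had 8.90, 9.55 and 9.88 with TUDCA, against 10.47, 10.70 and 11.44 with vehicle, with no overlap (difference −1.28 ± 0.18 SE, limma adjusted p = 0.00184). Abcc3, a basolateral exporter of conjugates and bile acids, had 7.60, 7.75 and 8.34 with TUDCA, against 7.22, 7.40 and 7.64 with vehicle (difference 0.59 ± 0.08 SE, limma adjusted p = 0.00172), and this call ended without the number range in the fit (adjusted p = 0.0723). Of 6 measured aryl hydrocarbon receptor targets, 1 was higher and 0 lower: Nqo1, a quinone reductase, at 0.42 ± 0.08 (SE; limma adjusted p = 0.0158), a call that ended without TUDCA replicate 1 and without the number range in the fit (adjusted p = 0.116). Of 23 measured conjugation enzymes, which act on P450 products, 1 was higher and 0 lower: Gsta4, a glutathione transferase for lipid aldehydes, at 1.21 ± 0.18 (SE; limma adjusted p = 0.00261). None of 20 measured genes of steroid synthesis other than P450s passed.

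The P450 genes with the widest spread between arrays of one group were Cyp2e1, Cyp2c55 and Cyp2j13, with pooled SDs of 2.00, 1.42 and 1.12 log2 units. They were chosen after their values were seen. Cyp2e1, which oxidises ethanol and other small molecules and is known from liver and fat, had 4.99, 8.92 and 9.73 with TUDCA, against 4.76, 7.96 and 9.49 with vehicle. Both groups spanned nearly the same range, and the 95% interval of the difference ran from −2.20 to 1.00. Cyp2c55, which oxidises arachidonic acid and is known from the large intestine, had 6.01, 6.46 and 7.18 with TUDCA, against 4.97, 7.65 and 10.13 with vehicle. The vehicle arrays lay on both sides of the TUDCA arrays, and the 95% interval of its difference of −0.99 ran from −2.51 to 0.54. Cyp2j13 was high on TUDCA replicate 3 (8.57) and vehicle replicate 4 (7.81) and lay at 4.55 to 6.12 elsewhere.

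**Figure D4:**
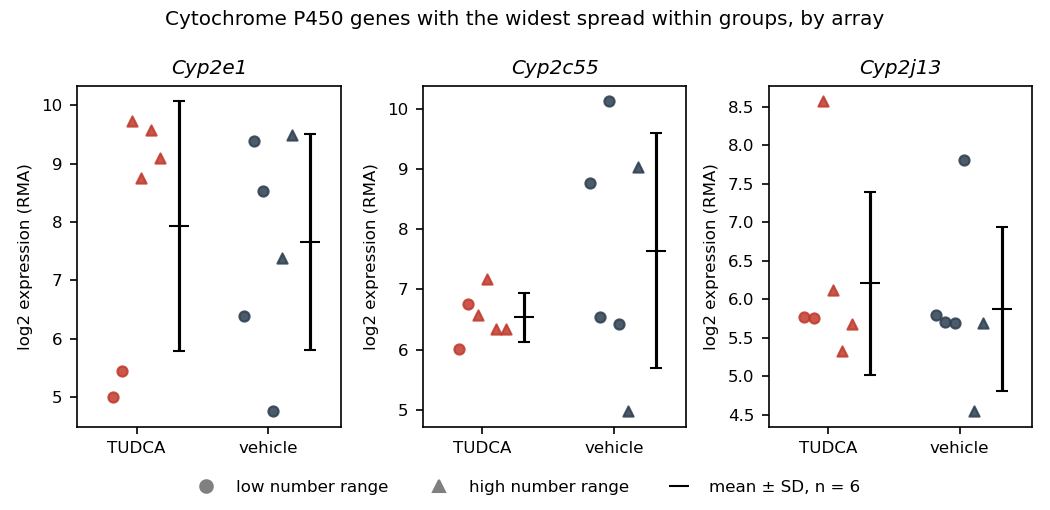
Log2 expression on each array for the 3 P450 genes with the widest spread within groups, with the mean ± SD of 6 arrays beside each group, circles for the low and triangles for the high number range. Cyp2e1 ranges from 4.99 to 9.73 within TUDCA arrays and from 4.76 to 9.49 within vehicle arrays, and the axes do not start at 0.

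Cyp2e1 followed the adipocyte markers across the 12 arrays. The mean level of 8 measured adipocyte markers was 6.25 to 7.52 on the TUDCA arrays and 6.24 to 7.82 on the vehicle arrays, and none of the markers passed the test between the groups. Pearson's r was 0.94 (permutation p = 4e-05, adjusted p = 0.0018 over 45 relations of the 3 genes with 15 marker lists) and Spearman's rho was 0.78 (permutation p = 0.00448, adjusted p = 0.202). Without the 2 arrays farthest from the median of the markers r was 0.91. It was 0.96 in the low and 0.87 in the high number range, and 0.98 among TUDCA and 0.94 among vehicle arrays. Of the 45 relations 1 passed by Pearson's r and 0 by both measures. The low-range TUDCA arrays, replicates 1 and 2, were low in both measures. Vehicle replicate 4, also of the low range, was the lowest array in both, at 6.24 for the markers and 4.76 for Cyp2e1. After the adipocyte list, the strongest relation of Cyp2e1 by Pearson's r was with crypt stem and cycling markers. It was −0.74 (permutation adjusted p = 0.139) and did not pass, with −0.79 among TUDCA and −0.78 among vehicle arrays. The list of liver markers, another tissue where Cyp2e1 is expressed, gave an r of 0.18. The liver value was −0.86 in the low and −0.23 in the high number range, and 5 of the 15 measured liver markers were dim. Which cells or tissue the Cyp2e1 signal came from was not tested.

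**Figure D5:**
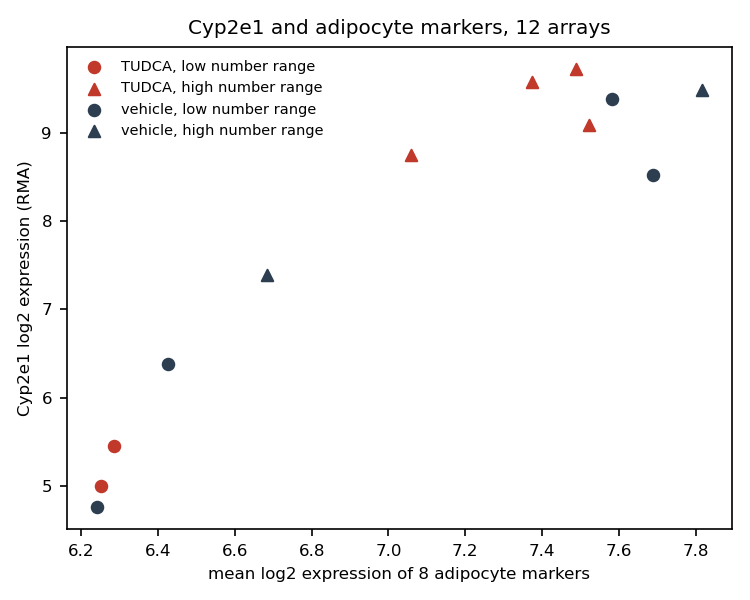
Cyp2e1 log2 expression against the mean log2 expression of 8 adipocyte markers, 1 point per array, coloured by group and shaped by number range. Points rise together from about the lowest arrays of both groups to the highest, with r of 0.94 over 12 arrays.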

How the data were processed

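RNA of small intestine was measured on 12 arrays, 6 TUDCA and 6 vehicle. The deposited log2 expression values, 1 for each probe set on each array, were made with RMA in the package oligo, per the submitters' processing notes (background correction, quantile normalisation, probe set summarisation). Versions and filters are not given in the sources used here. RMA makes array distributions alike, so a shift of all genes one way would not be seen. Scanner files and probe sequences were not used here, and no genome build is stated for the files.

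The platform annotation supplied the gene names, with 1 gene for 21557, several for 787 and none for 1647. Of 97 probe sets with 1 Cyp symbol, 4 pseudogenes and Cyp51 were left out, Cyp4b1-ps2 being taken as a pseudogene. All 92 members matched RefSeq (GRCm38.p6) by gene ID.

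Differences were fitted over all probe sets with limma 3.58.1 in R 4.3.3 (lmFit, eBayes with trend), with treatment and number range as terms, two-sided, with Benjamini-Hochberg adjustment over all 23991 and a threshold of 0.05. The fit was tested on simulated data. Arrays were treated as separate samples, going by the sample numbers. The labels give no other sign of separate animals, so p-values measure the spread between these samples, part of which may be technical. Correlations used 100000 permutations (scipy 1.17.1). A gap over 600000 bases ended a tandem group, and promoters were aligned with Biopython 1.88. Figures were drawn with matplotlib 3.10.9.

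Named were members past the threshold, the 8 largest differences per direction among the others, a fixed set, and up to 6 called genes of each of 26 lists (396 genes, 350 measured). The members, lists and rule were chosen with earlier results of these data known. Alternatives tried were dropping the number range, replicate blocks, each range alone, a filter on dim probe sets, requantiling, centring, eBayes without trend or robust, array weights, a threshold of 0.1, and omission of each array or of both low-range TUDCA arrays.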

Additional observations from a re-analysis of the deposited data

Results flagged for a closer look

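A sample far from the others of its group was found for 9 of 88 groups of P450 values examined, and for 14 of 170 in all, by the ratio of its gap to the group's range (Dixon's test). Chance marks about 1 in 20 groups. TUDCA replicate 3 stood high for Cyp2j13 (8.57, others 5.33 to 6.12), Cyp2j9 (7.56, others 6.47 to 6.74), Cyp2j6 (9.77, others 9.18 to 9.37), Cyp4f16 (8.68, others 7.57 to 7.97) and Cyp1b1 (6.88, others 6.26 to 6.47). The same array had the highest mean of duodenum and jejunum markers among the TUDCA arrays (8.43, others 7.99 to 8.13). Vehicle replicates 2 and 4 were at 8.40. Over the 12 arrays the relation of Cyp2j13 with these markers did not pass. Pearson's r was 0.51 (permutation adjusted p = 0.514) and Spearman's rho was 0.38 (permutation adjusted p = 0.641). Pearson's r was 0.96 among TUDCA and 0.36 among vehicle arrays. For the other genes the part of these markers was not tested. Vehicle replicate 5 stood high for Cyp4a29 (5.45, others 3.51 to 3.85), vehicle replicate 3 for Cyp1b1 (6.71, others 6.48 to 6.55) and vehicle replicate 2 for Cyp2c29 (3.92, others 3.34 to 3.49). TUDCA replicate 6 stood low for Cyp39a1 (5.94, others 6.39 to 6.64).

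Among the list genes, TUDCA replicate 2 stood low for S100g (7.34, others 9.20 to 10.31) and for the T cell genes Cd8b1 (6.65, others 7.27 to 7.50), Cd3e (6.69, others 7.54 to 8.02) and Cd3g (6.24, others 7.49 to 7.96). TUDCA replicate 6 stood low for Acox2 (6.46, others 6.79 to 6.96).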

How the results depend on the processing

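Under 25 alternatives, 44 named P450 genes gave 1079 values, of which 997 kept their direction and side of the threshold, 22 lost a call, 14 gained one and 46 changed sign. The count of members higher (0) became 1 with a replicate block without the number range, 2 with array weights and 2 at a threshold of 0.1, and the count lower (4) became 0 in the high range alone and 0 without both low-range TUDCA arrays. With 1 array left out, members lower ranged from 2 (without TUDCA replicate 1 or vehicle replicate 6) to 5 and members higher from 0 to 2 (2 without TUDCA replicate 2). Of all probe sets, 241 higher became 85 with a replicate block with the number range, 6 in the high range alone, 436 with array weights, 429 at a threshold of 0.1, 7 without both low-range TUDCA arrays and 91 to 292 with 1 array left out. The 364 lower became 190 with that block, 3 in the high range alone, 13 without both and 151 to 417 with 1 array left out. The low range alone holds 2 TUDCA arrays and the high range alone 2 vehicle arrays.

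The labels do not say that the replicate numbers pair the samples. Correlations of deviations from group means between same-numbered arrays ran from −0.06 to 0.26, and 4 of 6 numbers matched best with themselves. With the number range also fitted the correlations ran from −0.21 to 0.24. Whether the numbers pair samples was not tested. Of the 4 called members the block with the number range lost Cyp4f13 (−0.46, limma adjusted p = 0.0599). The values that changed sign belong to members without a call. Without the number range, and with the replicate block without it, they were 0.28 for Cyp2e1, −0.11 for Cyp2d26, −0.025 for Cyp7b1 and 0.0021 for Cyp26a1. With the replicate block and the range they were −0.059 for Cyp2c66, −0.090 for Cyp2d26, −0.0012 for Cyp24a1 and 0.021 for Cyp26b1. In the low range alone they were 0.32 for Cyp4a29, −0.49 for Cyp2j13, −0.0025 for Cyp2c66, −0.34 for Cyp2d26, 0.082 for Cyp3a13, 0.069 for Cyp8b1 and 0.035 for Cyp26a1. In the high range alone and without both low-range TUDCA arrays they were 0.85 for Cyp2e1, −0.0017 for Cyp7b1 and −0.070 for Cyp20a1. With 1 array left out, ranges that crossed 0 were −0.55 to 0.12 for Cyp4a29, −0.028 to 0.70 for Cyp2j13, −0.0087 to 0.12 for Cyp2c66, −0.11 to 0.31 for Cyp2d26, −0.048 to 0.054 for Cyp7b1, −0.10 to 0.080 for Cyp8b1, −0.0026 to 0.067 for Cyp24a1 and −0.062 to 0.034 for Cyp26a1. The causes were not tested. Of the 41 called list genes named by rule, 2 kept their calls in the high range alone (Ace and Gzma) and 3 without both low-range TUDCA arrays (these and S100g). Robust eBayes ended the calls of Vnn1 (limma adjusted p = 0.0577), Ly6g (0.0544), Car1 (0.0642), Gzmb (0.116) and Cd3g (0.125). Requantiling ended those of Cubn (0.0820), Isx (0.0641) and Clec2h (0.103). Variances without a trend ended those of Isx (0.0673), Guca2a (0.0642), Nr3c1 (0.0508), Agr2 (0.0534) and Cd3g (0.0642). Array weights ended those of Gzmb (0.0524) and Cd3g (0.0622). Replicate blocks also ended calls of list genes. Cyp3a25, Cyp3a59 and the other members with means under the median of all probe sets have no value with dim probe sets left out. The lack of detection calls limits what can be said of members near the floor.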

Other observations

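Of 9 measured colon markers 2 were higher and 0 lower with TUDCA. Car1, a carbonic anhydrase, averaged 6.00 ± 0.69 with TUDCA and 4.54 ± 0.47 with vehicle (SD, n = 6 each; limma adjusted p = 0.0233), and Ly6g averaged 6.03 ± 0.31 with TUDCA and 4.78 ± 0.65 with vehicle (SD, n = 6 each; limma adjusted p = 0.0211). Both calls ended without TUDCA replicate 2 or vehicle replicate 6, and that of Ly6g also without TUDCA replicate 1. Of 12 ileum markers 1 was higher and 2 lower, and of 11 duodenum and jejunum markers 1 was lower. Of 15 liver markers 1 was higher, and none of 10 pancreas markers passed.

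GATAA, the core recognised by GATA factors, was present for 42.9% of member genes with a promoter and in 22.6% of all promoters. For GTTAAT, part of the HNF1 motif, the shares were 11.4% and 6.43%, and for GCGTG, the aryl hydrocarbon receptor core, 21.4% and 28.2%. These are counts of letters on both strands, per gene for members and per promoter for all, without a test.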
